A study of Cannabis sativa with 6 samples.

Results

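In flowers of feral hemp (Cannabis sativa), 150 of 29777 listed genes were abundant in every female library and scarce in the Knox and Madison males. In the Merick male these genes stood at 50% or more of the lowest female, though most were below every female. They were chosen by their CPM, a gene's count scaled to 1000000 summed gene counts per library, and all 6 libraries entered that choice. A member had at least 10 CPM in its lowest female library, and that lowest female was at least 8 times both the Knox and the Madison male. In addition, the Merick male reached at least 50% of the lowest female. The separation of the Merick male from the other males is therefore the criterion and not a finding, and levels across the sexes are given below as descriptions. "Kept" is used below for this last condition and says nothing of how the level arose. The rule left out 1 further gene, which is not reported here.

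Hemp is mostly dioecious: a plant bears either pistillate (female) or staminate (male) flowers, and sex is tied to an XY pair of chromosomes. Pistillate flowers consist mainly of a bract that encloses the ovary and long stigmas, and the bract carries the glandular hairs in which cannabinoids and terpenes are made. Staminate flowers open to show anthers that shed pollen, and a large set of genes in them serves anther and pollen development. The reference gene table gives no function for any of the 150 genes, so they are described by level, by order among libraries and by place.

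The study took flowers of female and male plants from 3 Nebraska locations, Knox, Madison and Merick, with 1 library per sex and location. Plants of both sexes were raised in pots under chamber or greenhouse conditions with a long day that was later shortened to bring on flowering. No genotype, treatment or age is labelled for any library, and the sources used here do not give the flower stage or the number of plants in a library. Each library therefore stands for its sex and location alone, and sex, plant, stage and location cannot be told apart for the Merick male. In whole flowers, fewer cells of a type and less RNA per cell cannot be told apart either.

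The Knox female was the shallowest library with 26945432 gene counts and the Merick male the deepest with 46045338. Members had at least 276 counts in every female and at least 246 in the Merick male, so counting error was small there. In the Knox male 8 members had at most 3 counts, and in the Madison male 1 did. Genes chosen as high in the Knox and Madison males were, as a group, lower in the Merick male. For 726 genes the Knox and Madison males both had at least 10 CPM and at least 8 times every female. Their share of gene counts was 19.1% (Knox male), 19.4% (Madison male) and 4.94% (Merick male), and it lay between 0.20% and 0.23% in the females. In the Merick male 151 of them reached at least 50% of the lower of the other males, 299 were at most 12.5% of it, and 455 were still at least 8 times every female. These genes were chosen by the Knox and Madison males without the Merick male, so its lower share is partly set by the choice. No other male was put in its place for these genes. The part of these male-high genes in the members' levels was not tested.

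Over the 150 members the median level was 40.2 CPM (Knox female), 39.9 (Madison female) and 54.7 (Merick female). The Merick male had a median of 30.7 CPM, the Knox male one of 1.64 and the Madison male one of 2.21. Together the members took 2.92%, 3.79% and 4.84% of the gene counts of the Knox, Madison and Merick females and 2.47% of those of the Merick male. Their shares were 0.11% (Knox male) and 0.19% (Madison male) in the other males. Read as summed levels, the Merick male was below every female and far above both other males. In the lowest female library 51 members were under 20 CPM, 70 were from 20 to under 100, 22 were from 100 to under 1000, and 7 had at least 1000 CPM.

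**Figure D1:**
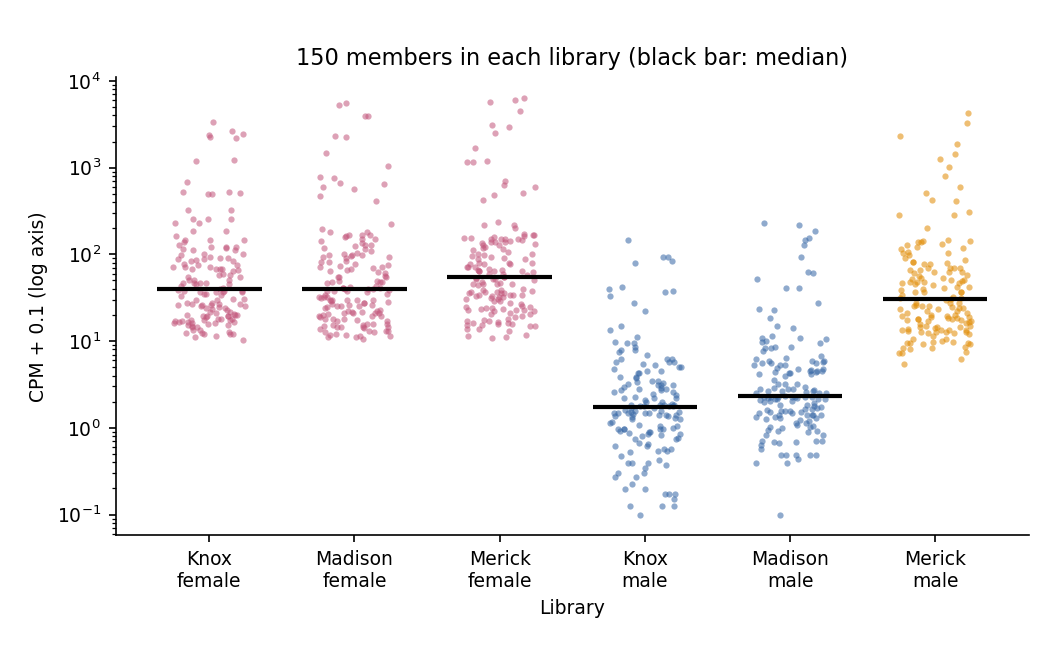
Each point is 1 of the 150 members in 1 library, as CPM + 0.1 on a log axis, and the black bar is the library's median. The Merick male has a median of 30.7 CPM, below that of every female, while the Knox and Madison males have medians of 1.64 and 2.21 CPM.

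The members' levels in the Merick male correlated most with those of the Madison and Knox females. Across the 150 genes, log2(CPM + 0.1) in the Merick male had a Pearson correlation of 0.94 with the Madison female, 0.90 with the Knox female and 0.88 with the Merick female. Its correlation was 0.88 with the Madison male and 0.79 with the Knox male, and the females correlated with each other at 0.89 to 0.93. By rank (Spearman) the values for the Merick male were 0.87 with the Madison female, 0.85 with the Knox female, 0.80 with the Madison male, 0.78 with the Merick female and 0.72 with the Knox male. The female of its own location thus correlated with it no better than the Madison male did. Correlation ignores a shared shift in level. By median level, the Merick male (30.7 CPM) was nearer to the Merick female (54.7) than to the Madison male (2.21). The choice of genes ties the Merick male to at least 50% of the lowest female and holds the other males to at most 12.5% of it, which bears on these values. These are descriptions across genes, which are not independent replicates, and part of each value comes from some genes being abundant in every library.

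The Merick male was not simply at the female level. Its ratio to the mean of the females had a median of 0.61 over the members, with a range of 0.21 to 3.59. Against single females the median ratio was 0.72 (Knox), 0.68 (Madison) and 0.57 (Merick). The Merick male was below every female for 95 members, inside the female range for 41 and above every female for 14. Over the other 10373 genes with at least 10 CPM in every female, the median ratio of the Merick male to the female mean was 1.00. Since the criterion bounds this ratio from below only, the members' median is partly set by the choice of genes.

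The 150 members are the upper end of a wider group. In all, 248 genes were at least 10 CPM in every female and at least 8 times both the Knox and the Madison male. Of these, 21 were also at most 12.5% of the lowest female in the Merick male, and 77 lay between 12.5% and 50%. Between-group genes crowded toward the 50% line, with no gap there. LOC115699384, at 49.99% of its lowest female, and LOC115699133, at 49.7%, fell just outside, and LOC115699328 and LOC115699462, both at 50.03%, fell just inside. Near the fold criterion, LOC115713184 (8.04 times) and LOC115704082 (8.05) were members, while LOC115714895 (7.996) and LOC115702361 (7.93) were not. Near the level criterion, LOC115710271 (10.2 CPM in its lowest female) and LOC115709201 (10.6) were members, while LOC115704997 (9.82) and LOC115715324 (9.74) were not.

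**Figure D2:**
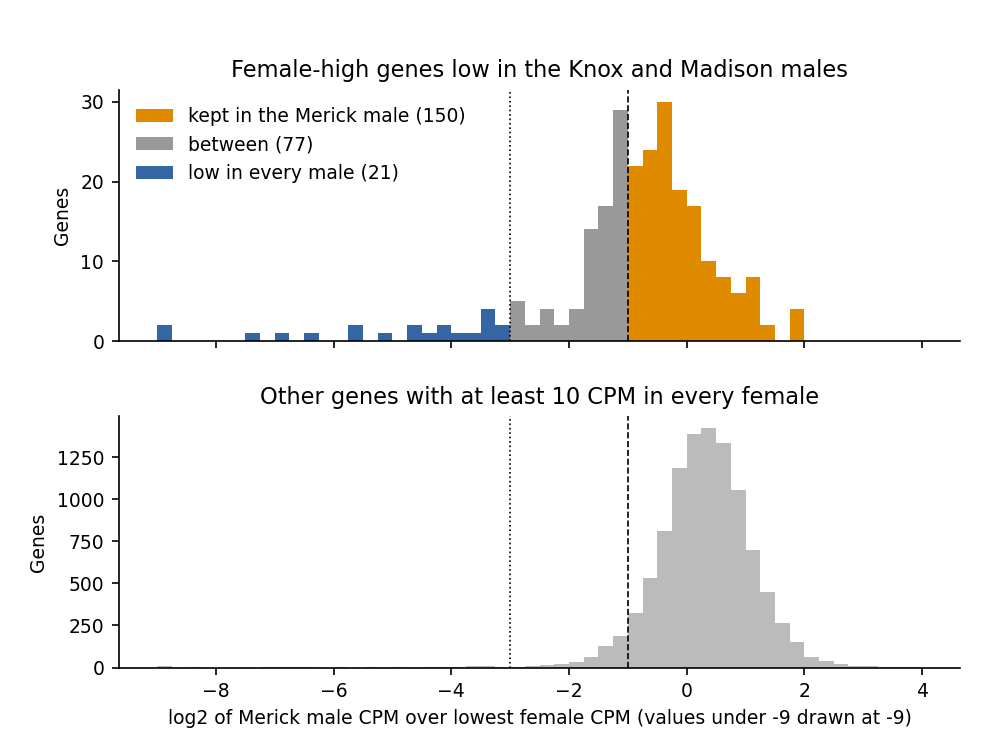
Histograms of the log2 ratio of the Merick male to the lowest female, for the 248 female-high genes low in the Knox and Madison males (top) and for the other genes with at least 10 CPM in every female (bottom). The dashed line marks 50% and the dotted line 12.5% of the lowest female; the 150 members lie right of the dashed line and run into the 77 genes left of it without a gap.

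The same criterion met few genes when another male took the place of the Merick male. With the Knox male as the kept male, 29 genes were high in females and low in the other males, and 1 of them was kept. This gene, LOC115710673, stood at 16.2, 19.6 and 20.8 CPM in the Knox, Madison and Merick females, and at 36.8 in the Knox male. It had 0.28 CPM in the Merick male and 0 counts in the Madison male. With the Madison male as the kept male, 24 genes were found and 1 was kept. That gene, LOC115704435, stood at 15.5, 11.1 and 31.6 CPM in the females, and 16.2 in the Madison male, against 0.099 (Knox) and 0.022 (Merick) in the other males. The count kept in a single male was thus 150 of 248 for the Merick male, against 1 of 29 and 1 of 24. The criterion was set around the Merick male with earlier results of these data known. These counts are therefore descriptions and no test of that male.

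Among the 14 members with the Merick male above every female, the widest margin was in LOC115720598, at 13.2, 12.5 and 14.8 CPM in the Knox, Madison and Merick females. Its Merick male level was 48.4 CPM, 3.27 times the highest female, while the Knox and Madison males had 0.52 and 0.73 CPM. It was the 1 member with the Merick male at more than 2 times the highest female, and its females were close together (13.5 ± 1.19 CPM, SD, n = 3).

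LOC115721433 followed, at 46.6, 40.6 and 70.6 CPM in the Knox, Madison and Merick females and 140.6 in the Merick male, with 2.88 in the Knox and 4.39 in the Madison male. LOC115696959 had 37.6, 40.6 and 46.2 CPM in the same females, 80.4 in the Merick male and 1.74 and 4.61 in the Knox and Madison males. In both genes the Merick female was the highest female and the Merick male lay above it, by 1.99 and 1.74 times.

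A different order held in LOC115725390 and LOC115704312, where the Merick female was the lowest female. LOC115725390 had 45.9, 39.8 and 24.5 CPM in the Knox, Madison and Merick females, 61.8 in the Merick male, and 2.11 and 2.53 in the other males. LOC115704312, on X in the Pink pepper assembly, had 29.5, 32.1 and 17.6 CPM in the females, 41.7 in the Merick male, and 0.42 and 1.02 in the Knox and Madison males. In these genes the Merick male was thus 2.52 and 2.37 times the female of its own location.

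LOC115712629, also on X there, spread widely among females, at 83.9, 194 and 216 CPM in the Knox, Madison and Merick females. Its Merick male level was 283 CPM, against 2.70 and 5.17 in the Knox and Madison males. LOC115717287 and LOC115714005 completed the 8 genes with the widest margins, at 1.34 and 1.26 times the highest female. The Merick male had 30.9 CPM of the former and 25.5 of the latter. Of these 8 genes, LOC115721433, LOC115696959, LOC115717287 and LOC115714005 no longer met the rule with TMM-scaled library sizes.

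The other 6 members above every female were named after their values were seen. LOC115706501 had 144, 94.8 and 39.0 CPM in the Knox, Madison and Merick females and 147 in the Merick male, and LOC115700488 had 115, 65.7 and 78.2 CPM and 144. LOC115705755 had 68.2, 49.4 and 33.4 CPM in the females and 78.3 in the Merick male. LOC115724965 was even among females, at 36.5, 37.2 and 36.4 CPM, with 46.7 in the Merick male. LOC115712565 had 67.4, 55.1 and 95.2 CPM in the females and 102 in the Merick male, and LOC115711342 had 15.8, 16.9 and 15.9 CPM and 18.5. In most of these genes the Merick male was close to its highest female, and the Knox and Madison males were at most 4.88 CPM in all 6. Over all 150 members the Merick male was above the Merick female for 26.

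Among the members that took the most reads, the Merick male ranged from well under to inside the female range. These 8 genes are given by their share of reads; CPM is not corrected for transcript length, so their levels are not ranked as transcript numbers. LOC115708105 had 2214, 5344 and 2944 CPM in the Knox, Madison and Merick females and 4293 in the Merick male, inside the female range. In the Knox and Madison males it had 92.3 and 184 CPM. LOC115724972 was alike in this respect, with 2382, 3925 and 3110 CPM in the females, 3269 in the Merick male, and 146 and 215 in the others. It had the highest level of any member in the Knox male.

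LOC115722196 had 1217, 2261 and 2486 CPM in the Knox, Madison and Merick females, 1443 in the Merick male, and 83.6 and 128 in the Knox and Madison males. LOC115701247 had 2456, 5537 and 5762 CPM in the females, 2312 in the Merick male, and 37.98 and 155 in the others. LOC115724169 had 1180, 1488 and 1706 CPM in the females, 1013 in the Merick male, and 79.1 and 145 in the others. The first of these lay inside the female range in the Merick male and the other two just below it, at 94.1% and 85.9% of the lowest female. With TMM-scaled library sizes LOC115724169 no longer met the rule.

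LOC115698170 reached the highest value of any member in any library, 6319 CPM in the Merick female, with 3332 (Knox) and 2301 (Madison) in the other females. It had 1873 CPM in the Merick male, and 39.8 and 93.9 in the Knox and Madison males. LOC115725330 had 2253, 3897 and 5968 CPM in the females, 1270 in the Merick male, and 92.9 and 227 in the Knox and Madison males. In both genes the Merick male was below every female at 29.6% and 21.3% of the Merick female.

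LOC115707556 had the lowest Knox male level of these 8 genes. Its levels were 2672, 756 and 4483 CPM in the Knox, Madison and Merick females, 597 in the Merick male, and 3.32 and 27.2 in the Knox and Madison males. Its Merick male was at 0.79 times the lowest female and at 13.3% of the Merick female. The 10 members with the highest lowest-female CPM made up 64.2% to 71.8% of the members' summed CPM in the females and 70.03% in the Merick male, so the summed levels above rest largely on them.

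**Figure D3:**
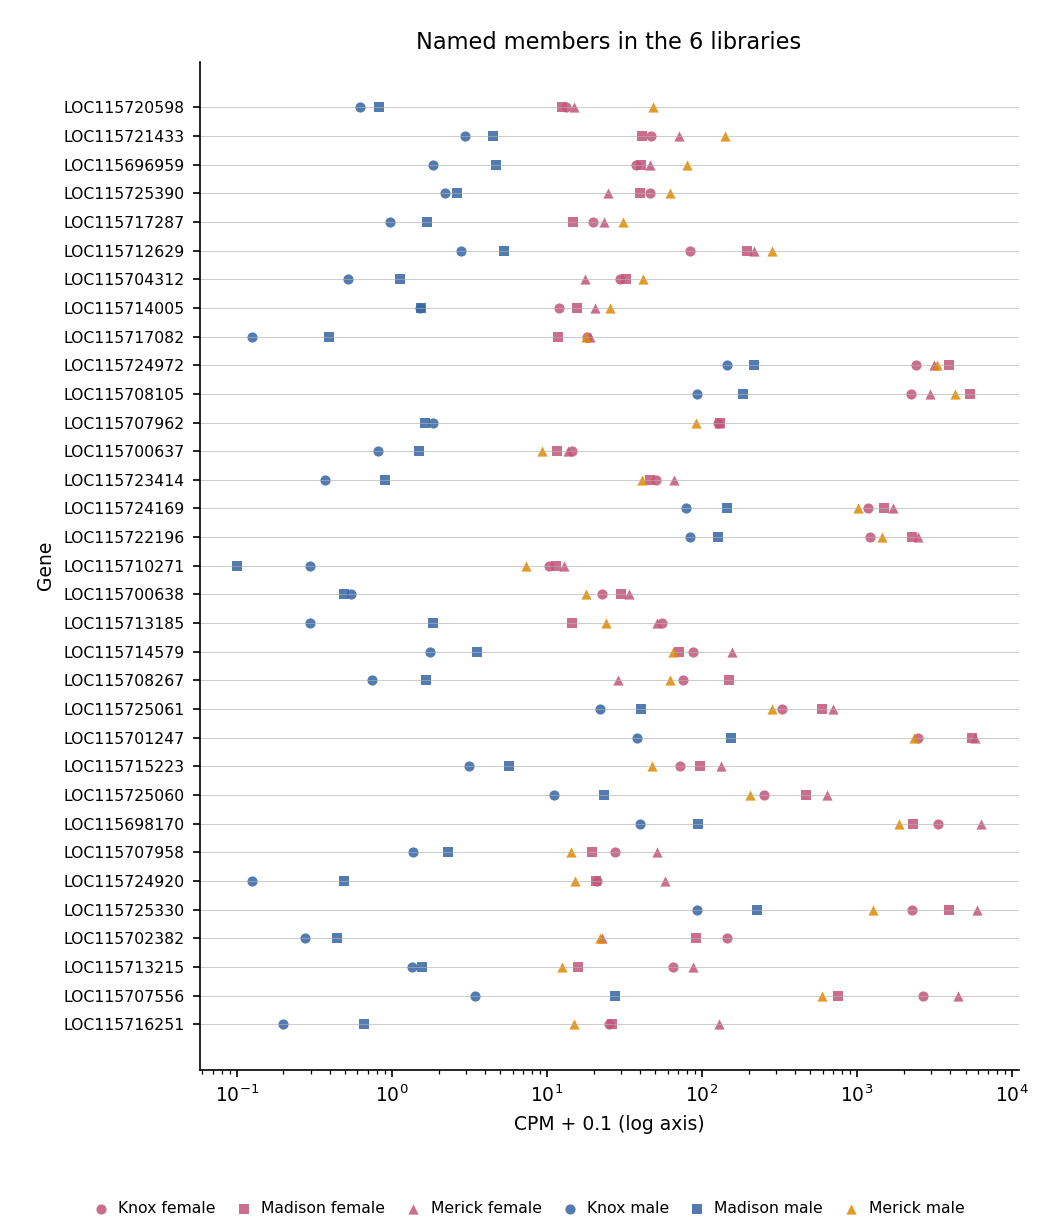
CPM + 0.1 on a log axis for the 33 named members, 1 row per gene and 1 point per library; red marks are females, blue marks the Knox and Madison males and orange triangles the Merick male. Genes are sorted by the ratio of the Merick male to the highest female, from 3.27 in LOC115720598 at the top; in every row the blue marks lie left of all others.

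Another set of members was named for a wide ratio of the lowest female to the higher of the Knox and Madison males. The lowest female was 73.2 times the higher of these males in LOC115707962, the widest separation among the members. By CPM without further scaling of library sizes, this gene was also the most even among females. Its levels were 127, 130 and 129 CPM in the Knox, Madison and Merick females (128.5 ± 1.29 CPM, SD, n = 3). It had 91.3 CPM in the Merick male, and 1.74 and 1.54 in the Knox and Madison males. Every female was therefore above the Merick male by more than the spread among females.

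LOC115723414 had 50.1, 46.3 and 66.1 CPM in the females, 40.7 in the Merick male, and 0.27 and 0.80 in the other males. LOC115700638 had 22.5, 29.8 and 33.7 CPM in the females, 17.9 in the Merick male, and 0.45 and 0.39 in the other males. LOC115717082 had 18.1, 11.7 and 18.9 CPM in the females and 17.7 in the Merick male, with 1 count in the Knox male and 12 in the Madison male. The last of these lay inside the female range in the Merick male, and the others below it.

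LOC115724920 had 21.1, 20.7 and 57.5 CPM in the Knox, Madison and Merick females and 15.0 in the Merick male, with 1 count in the Knox male and 16 in the Madison male. LOC115716251 had 25.1, 26.0 and 128.6 CPM in the females, 14.9 in the Merick male, and 0.099 and 0.56 in the other males. Both were higher in the Merick female than in the other females, and the Merick male did not share that excess, at 26.1% and 11.6% of the Merick female.

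The reference gene table lists LOC115710271 and LOC115708961 as long non-coding RNA genes. LOC115710271 had 10.2, 11.4 and 12.9 CPM in the females and 7.19 in the Merick male, with 8 counts in the Knox male and none in the Madison male. A count of 0 there allows a level of up to 0.073 CPM (3 counts, counting error only). LOC115708961 had 16.3, 29.9 and 20.6 CPM in the females, 19.6 in the Merick male, and 0.32 and 1.32 in the other males. The former was below every female in the Merick male, and the latter inside the female range. With TMM-scaled library sizes LOC115710271 no longer met the rule. Among coding members, LOC115721851 had no count in the Knox male, which allows up to 0.074 CPM, and 13.3 CPM in the Merick male.

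The members' levels were uneven among the females. The ratio of the highest to the lowest female had a median of 1.88 over the members and of 1.43 over the other 10373 genes with at least 10 CPM in every female. It was at least 2 in 69 members and at least 4 in 13. The choice of genes used the lowest female, so this ratio is not independent of it. The widest ratio was in LOC115702382, on X in the Pink pepper assembly, at 145, 92.0 and 22.7 CPM in the Knox, Madison and Merick females. Its Merick male stood at 21.9 CPM, and the Knox and Madison males at 0.17 and 0.34. The Merick male and female were thus alike, and the Knox female was 6.41 times the Merick female.

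LOC115713215 and LOC115708267, both on X, showed other orders. LOC115713215 had 65.1, 15.9 and 87.3 CPM in the Knox, Madison and Merick females, 12.3 in the Merick male, and 1.24 and 1.46 in the others. LOC115708267 had 75.3, 150.1 and 28.6 CPM in the females, 62.05 in the Merick male, and 0.64 and 1.56 in the others. In the former the Merick male was below every female although the Merick female was the highest, and in the latter it was 2.17 times the Merick female, which was the lowest.

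**Figure D4:**
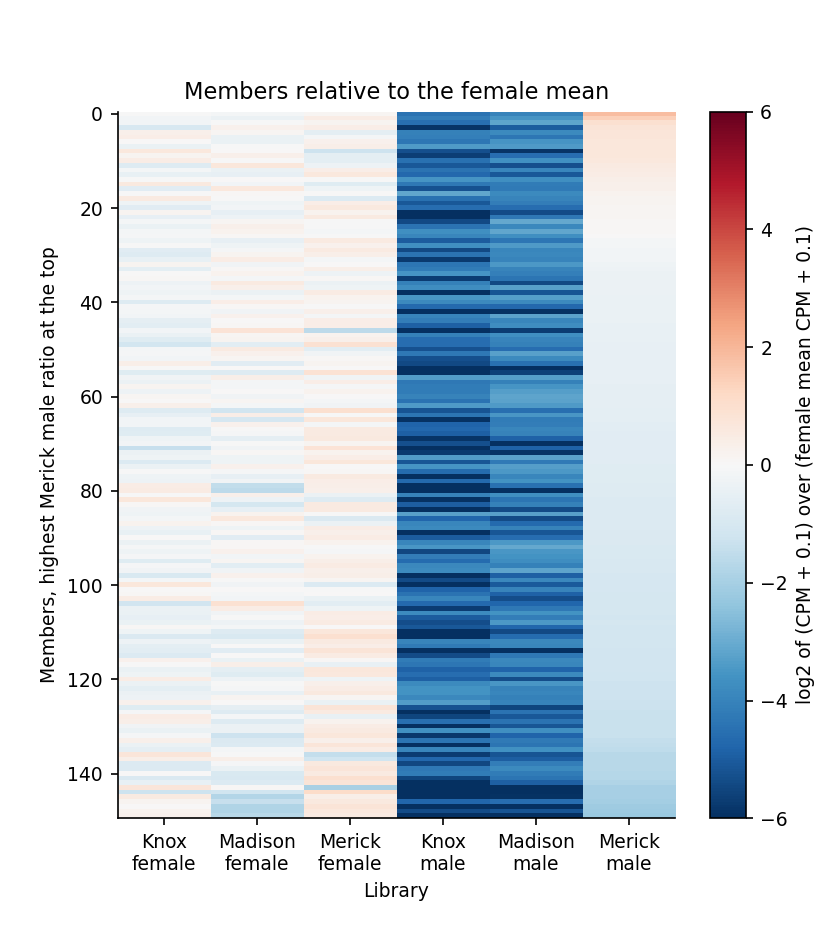
Heat map of the 150 members (rows) in the 6 libraries (columns), coloured by the log2 ratio of CPM + 0.1 to the female mean + 0.1. Rows are sorted by the Merick male ratio, from 3.59 at the top to 0.21 at the bottom; the Knox and Madison male columns are low in every row because the genes were chosen for that.

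The criterion did not fix which female was highest. The Merick female was the highest female for 85 members (56.7%), the Madison female for 35 and the Knox female for 30. Over the other 10373 genes the Merick female was the highest for 27.2%. The median ratio of the Merick female to the mean of the other females was 1.32 over the members and 0.90 over those genes. With TMM-scaled library sizes, which lower the Merick female's divisor, the counts were 104 members and 41.4% of the other genes. This order was not limited to the members: the Merick female was the highest for 10 of the 21 genes low in every male and for 38 of the 77 between. The 85 members with the Merick female highest had a median Merick male to female mean ratio of 0.57, against 0.69 for the other members, and 7 members of each kind had the Merick male above every female.

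The remaining level in the other males was also uneven. The Madison male was above the Knox male for 121 members (80.7%), with a median ratio of 1.53, against 43.3% and 0.96 over the other 10373 genes. With TMM-scaled library sizes the figures were 125 members and 53.1% of the other genes. Among the 21 genes low in every male the Madison male was above the Knox male for 12, and among the 77 between for 47. In the Knox male 51 members were under 1 CPM, in the Madison male 28 were, and 23 were under 1 CPM in both. The ceiling set by the criterion was the same for both males, and the median member stood at 5.25% of its lowest female in the Knox male and 8.54% in the Madison male. With 1 library each, this order describes these libraries and was not tested over replicates.

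The reference gene table, which describes the Pink pepper assembly, lists 146 of the 150 members, 144 of them as protein coding and 2 as long non-coding RNA. It places 144 on chromosomes. X and chromosome 1 held 23 members each (16.0% of placed members), chromosome 6 held 20 (13.9%) and chromosome 4 held 17 (11.8%). The shares of the other genes with at least 10 CPM in every female were 12.2% on X, 15.7% on chromosome 1, 7.86% on chromosome 6 and 11.6% on chromosome 4. Chromosomes 2 and 3 held 8 and 7 members (5.56% and 4.86%), against 9.88% and 8.45% of the other genes. These shares are descriptions, and the counts per chromosome are small.

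**Figure D5:**
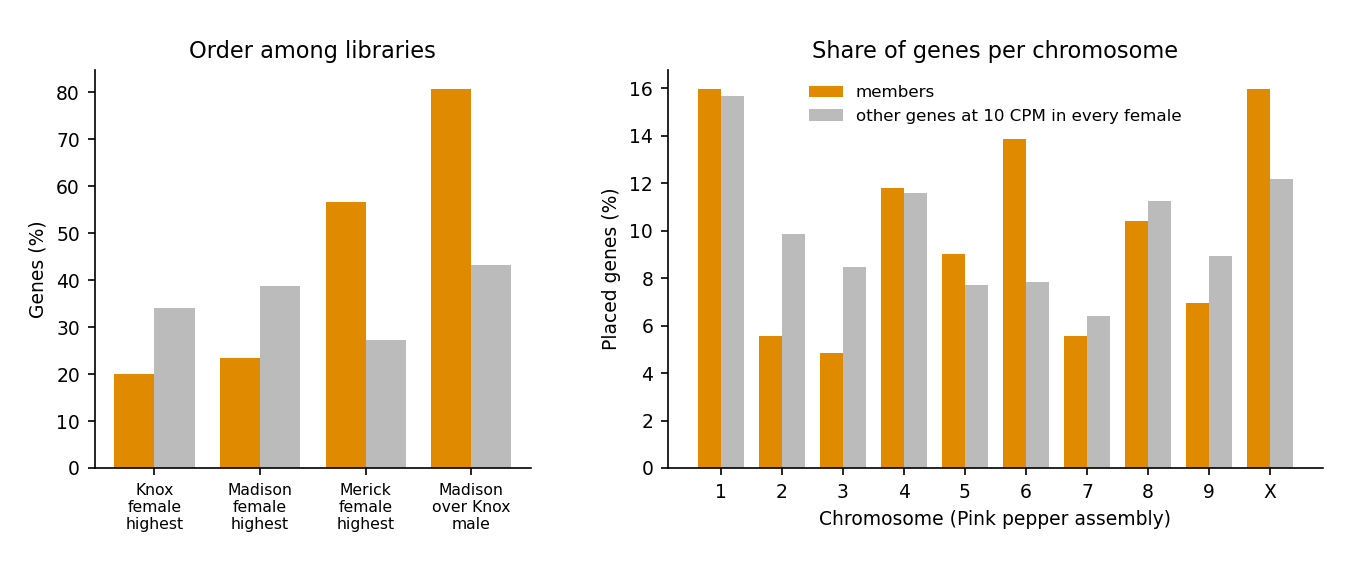
Left, the share of genes (%) with each female highest and with the Madison male above the Knox male; right, the share of placed genes (%) on each chromosome of the Pink pepper assembly. Orange bars are the members and grey bars the other genes with at least 10 CPM in every female; members had the Merick female highest in 56.7% against 27.2%, and chromosome 6 held 13.9% against 7.86%.

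Members lay next to each other in gene order in 5 places. Only the pair on chromosome 4 remained whole with TMM-scaled library sizes. LOC115725061, LOC115707958, LOC115713185 and LOC115700637 then no longer met the rule. Thinning to equal depth lost LOC115725061 and LOC115700637. Leaving out the Knox female lost genes of the chromosome 4 and 6 pairs, and leaving out the Madison female both genes of the X pair. LOC115725061 and LOC115725060, neighbours on chromosome 6, had closely parallel levels. The former had 327, 594 and 699 CPM in the Knox, Madison and Merick females and the latter 253, 466 and 636. The Merick male stood at 281 and 204 CPM, the Madison male at 40.5 and 23.2, and the Knox male at 21.9 and 11.0. Every library ranked alike in both genes. Reads that fit both of such neighbours could not be assigned uniquely; whether these genes are near-identical copies was not examined here, so their split is uncertain.

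The pair on chromosome 4, LOC115714579 and LOC115715223, did not rank the females alike. LOC115714579 had 86.9, 71.0 and 155 CPM in the Knox, Madison and Merick females and 65.2 in the Merick male, and LOC115715223 had 72.1, 97.5 and 132 CPM and 47.6 in the Merick male. Both were below every female in the Merick male. In the Knox and Madison males the former had 1.66 and 3.46 CPM and the latter 3.02 and 5.56.

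On X, LOC115713185 lies beside LOC115713215, and both were lowest among females in Madison. LOC115713185 had 54.9, 14.4 and 51.0 CPM in the Knox, Madison and Merick females and 23.8 in the Merick male, with 0.20 and 1.73 in the Knox and Madison males. For LOC115713185 the Merick male was inside the female range and for its neighbour below it. On chromosome 1, LOC115707962 lies beside LOC115707958, which had 27.3, 19.5 and 51.2 CPM in the females and 14.2 in the Merick male. On chromosome 8, LOC115700638 lies beside LOC115700637, which had 14.5, 11.5 and 13.6 CPM in the females and 9.14 in the Merick male.

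Genes that flank members did not share the low level in the Knox and Madison males as a rule. For 103 flanking genes with at least 10 CPM in every female, the higher of these males had a median of 1.12 times the lowest female, against 1.15 over all 10373 other genes.

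Because every library entered the choice, the genes were also chosen without 1 library and then read in that library. Chosen without the Knox male, 187 genes were found, and in the Knox male 150 of them (80.2%) were at most 12.5% and 183 (97.9%) at most 50% of the lowest female. Chosen without the Madison male, 350 genes were found, of which 150 (42.9%) and 341 (97.4%) met these marks in the Madison male. Over all 10524 genes with at least 10 CPM in every female, 4.66% and 22.8% met them in the Knox male and 3.02% and 24.05% in the Madison male. The number chosen thus rested on the Madison male more than on the Knox male. In both cases the 150 are the members themselves, since the 12.5% mark restates the criterion. The females that set these marks also entered the choice, so the shares are no independent test of the low levels.

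Read in the left-out female, 139 of 201 genes (69.2%) chosen without the Knox female were at least 8 times both the Knox and Madison males in it. The counts were 145 of 172 (84.3%) for the Madison female and 147 of 171 (86.0%) for the Merick female. Over genes with at least 10 CPM in the remaining females, 3.55%, 3.98% and 4.79% met this. Fewer also had the Merick male at 50% or more of the left-out female: 109 (54.2%) for the Knox, 118 (68.6%) for the Madison and 83 (48.5%) for the Merick female, against 1.48%, 2.06% and 1.74% over those genes. The share meeting every condition was thus lowest in the Merick female, although the fold alone held most often there. The left-out female is compared with the same males that entered the choice, so these shares are no independent test of the males' low level. None of the other libraries is a Merick male, so the kept level could not be read in one that did not enter the choice.

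No member carries a common name in the reference table. Of the genes that do, 4 are set beside the members here. OAC (LOC115723438) encodes olivetolic acid cyclase of the cannabinoid pathway. Its Merick male level was 46.9% of its lowest female, Madison, under the 50% mark, and far below its Knox and Merick females. It had 327, 49.8 and 409 CPM in the Knox, Madison and Merick females, 23.4 in the Merick male, and 1.54 and 4.09 in the Knox and Madison males. LOC115699293 carries the polyketide synthase names PKSG2, PKSG4 and PKSF3, and the chalcone synthase gene CHS (LOC115724170) acts in flavonoid synthesis. In these genes the Merick male was at 1.16 and 1.17 times the lowest female. They failed the fold criterion, at 5.72 and 2.42 times the higher of the other males. TPS1 (LOC115716064), a terpene synthase, failed it as well, since its Madison female (3.31 CPM) was below its Madison male (5.09). Its Merick male had 50.8 CPM.

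In a test of male against female flowers over all genes, none of the 150 members was called lower or higher in males by edgeR's quasi-likelihood test at an adjusted p under 0.05, where 4.75% of the 19276 tested genes were called lower. At an unadjusted p under 0.05, 41 members were lower in males, against 14.2% of tested genes. DESeq2 called 52 members lower, against 13.1% of tested genes. With location as a replicate block, edgeR called 26 lower, against 3.69%, and with relative log expression scaling in place of TMM it called 1, against 4.83%. Without the Merick male, edgeR called all 150 lower, against 18.8%. Every male was below every female for 95 members, against 19.1% of tested genes. The rule used this contrast, and by requiring a high Merick male it widened the spread among males, so nothing is read from these counts. The members' fitted log2 change, male minus female, had a median of -2.15 over the 6 libraries and of -4.31 without the Merick male, where the median of all tested genes was 0.00025 and -0.02.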

How the data were processed

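RNA from 3 female and 3 male flower libraries was sequenced. The authors deposited raw counts, 1 table per library with 29777 gene rows and 5 closing rows for unassigned reads; the sources used here do not give the aligner, counter, genome build or strand setting. Library sizes and tests leave out the closing rows, which held 14.9% to 18.1% of listed reads. Counts of overlapping and antisense genes are uncertain since the strand setting is unknown, and reads without a unique alignment were not assigned to genes. CPM was computed from gene-count totals in Python 3.11.15. Libraries were grouped by the labelled sex; p-values measure the spread between libraries.

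The male against female test used edgeR 4.0.16 (TMM scaling, filterByExpr, robust quasi-likelihood fit, Benjamini-Hochberg adjustment, threshold 0.05, no covariate, 4 residual degrees of freedom), with DESeq2 1.42.0 as an alternative. The steps were tested on simulated data.

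Names and gene order came from an NCBI RefSeq table of the Pink pepper assembly. It holds neither functions nor sequences, so planned lists by description, protein comparisons and promoter motifs were not run. The build behind the counts is unknown, so no positions are printed.

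Members and lists were chosen with earlier results of these data known. Named genes were, by the rule used, the 8 members with the highest lowest-female CPM, the 8 with the largest Merick male to highest female ratio, the 8 with the largest ratio of the lowest female to the higher other male, the 4 with the widest female spread and up to 12 that neighbour another member. This gave 33 genes. Genes near a threshold, 6 further genes with the Merick male above every female, genes with 0 counts, the long non-coding members and the genes kept in another male were named after their values were seen. Alternatives were other scalings, thinning to equal depth, other thresholds, other filters, location as a block and leaving out each library.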

Additional observations from a re-analysis of the deposited data

Results flagged for a closer look

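In 11 of the named members the male was above the female in Merick but far below it in Knox and in Madison, so the sign of the difference varied between locations. Each sex and location has 1 library, so this was not tested, and the low levels in the Knox and Madison males were required by the choice of genes. Most of these 11 genes were named for a large Merick male to highest female ratio, so their sign in Merick came with the naming. Among all 150 members the Merick male was above the Merick female in 26. The count of 11 among the named members is therefore a description of genes picked in part for this order. The Merick male minus the Merick female, as log2(CPM + 0.1), was 1.70 in LOC115720598, 1.33 in LOC115725390, 1.24 in LOC115704312 and 1.11 in LOC115708267. It was 0.99 in LOC115721433, 0.80 in LOC115696959 and 0.54 in LOC115708105. The smallest values were 0.42 in LOC115717287, 0.39 in LOC115712629, 0.33 in LOC115714005 and 0.072 in LOC115724972. In Knox the same genes ranged from -6.66 (LOC115708267) to -2.98 (LOC115714005), and in Madison from -6.50 (LOC115708267) to -3.11 (LOC115696959). TMM scaling would lower each Merick value by 0.21, which turns the sign of LOC115724972.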

How the results depend on the processing

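The number of members depended on the thresholds, on the Madison male and on the scaling of library sizes. It was 150, and 99 with at least 20 CPM in the lowest female, 619 with a fold of at least 4, 41 with a fold of at least 16 and 55 with the Merick male at or above the lowest female. Without 1 library it ran from 171 to 350, the highest without the Madison male. TMM-scaled library sizes gave 110 genes and DESeq2 size factors 104, all of them among the 150, and thinning to equal depth gave 151, of which 139 were shared. The median ratio of the Merick male to the female mean stayed between 0.56 and 0.67 under the scalings, with the median female and without each female. Of the 33 named members, 16 met the rule under each of 7 alternatives (TMM scaling, thinning and each possible library left out), and 210 of 231 single outcomes were members. The count of members with the Merick male above the Merick female, 26, was 17 with DESeq2 size factors, an alternative chosen after seeing the data.

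Over all genes, 3339 were called between the sexes, against 6437 with DESeq2, 2123 with location as a replicate block and 131 to 8311 without 1 library. Members called lower in males numbered 0, but 1 with relative log expression scaling, 52 with DESeq2, 26 with the replicate block and 0 to 150 without 1 library, the 150 without the Merick male. Fewer libraries entered each of these fits. Leaving out any library other than the Merick male gave 0 called members, and 131 to 943 genes over all. The choice of genes required a high Merick male, and the cause of the counts was not tested. Libraries of a location were not treated as pairs, since their deviations from the mean of their sex correlated at 0.18 (Knox), 0.03 (Madison) and 0.24 (Merick). The rule gives no value without the Merick male. With 1 library per sex and location, no depth can separate library from location.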
